A study of Homo sapiens with 21 samples.

Results

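The comparison described here sets the highest dose of a caffeine series, 1000 µM, against the dose one 10-fold step below it, 100 µM. It rests on 6 of the 21 RNA-seq libraries of the series, 3 at each dose, chosen by dose label alone. All libraries came from HepG2, a human hepatoblastoma-derived liver cell line, held for 6 h in serum-free DMEM that contained caffeine at 0, 0.01, 0.1, 1, 10, 100 or 1000 µM. Full medium with serum had been removed at the start of exposure in every group, so both doses compared share the serum-free state and the time. The submitters call the 3 libraries of a dose biological replicates. A single tumour line without the cell diversity of liver is the model, and the 0 µM libraries enter only the estimate of spread, which used all 21 libraries.

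Caffeine is a methylxanthine. Its best known actions are block of adenosine receptors, which plasma concentrations after drinking coffee can reach, and, at higher concentrations, inhibition of cyclic nucleotide phosphodiesterases, release of calcium from the endoplasmic reticulum (ER) and inhibition of kinases of the PI3K-related family. In liver it is demethylated mainly by CYP1A2, an enzyme of the CYP1 family whose genes are controlled by the aryl hydrocarbon receptor (AHR). Levels below are CPM, read counts relative to the library's total after TMM scaling in edgeR, and since CPM are not divided by transcript length, levels are not compared between genes. In bulk RNA, fewer cells with a transcript and less transcript per cell cannot be told apart.

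Between 100 and 1000 µM, 2568 of 17468 genes tested changed (14.7%, adjusted p under 0.05 in the quasi-likelihood test of edgeR). At the higher dose 1424 were higher (8.15%) and 1144 were lower (6.55%), the median size of a called change was 0.57 on the log2 scale, and 382 genes changed by a log2 fold of 1 or more. The median log2 fold change of all genes was -0.00593. For 6428 genes (36.8%) the 3 libraries of one dose lay wholly apart from those of the other, 18.5% of genes with the 1000 µM libraries above and 18.3% with them below. The step before it, from 10 to 100 µM, gave 9 called genes (0.0515%), with 1281 at an unadjusted p under 0.05, and DESeq2 called 60. Set against the mean of the 4 doses from 0.01 to 10 µM, 100 µM gave 78 called genes (0.447%). All these comparisons use the same 3 libraries at 100 µM, so their values are given side by side and no overlap between them is reported.

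The question of what changed at the last step and not before was tested directly, as the difference between the 1000 against 100 µM change and the 100 against 10 µM change. This difference passed for 181 genes (1.04%), 141 with the last step the more positive (0.807%) and 40 with it the more negative (0.229%). All 181 were also called in the 1000 against 100 µM comparison, in the direction of the difference. For 116 of the 181 the preceding step had the opposite sign, so both steps, which share the 100 µM libraries, add to the difference. Fitted without the 0 µM libraries, the 2 counts were 2170 and 100. Counts also depended on the 100 µM libraries. Without replicate 1 or replicate 2 of 100 µM, the comparison of the highest doses gave 1405 and 1412 genes and the difference of steps 17 and 15, and without replicate 3 of 1000 µM they gave 1302 and 78. The latter was also 67 without replicate 3 of 100 µM and 100, 64 and 99 without replicate 1, 2 or 3 of 10 µM. Genes picked by the rule of naming were refitted without each library, and calls so lost are marked below; for further members the list's count without a library is given. Changes over a step and differences of steps are log2 fold changes ± SE throughout. The SE was worked back from the test, as the size of the change divided by the square root of its F statistic.

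**Figure D1:**
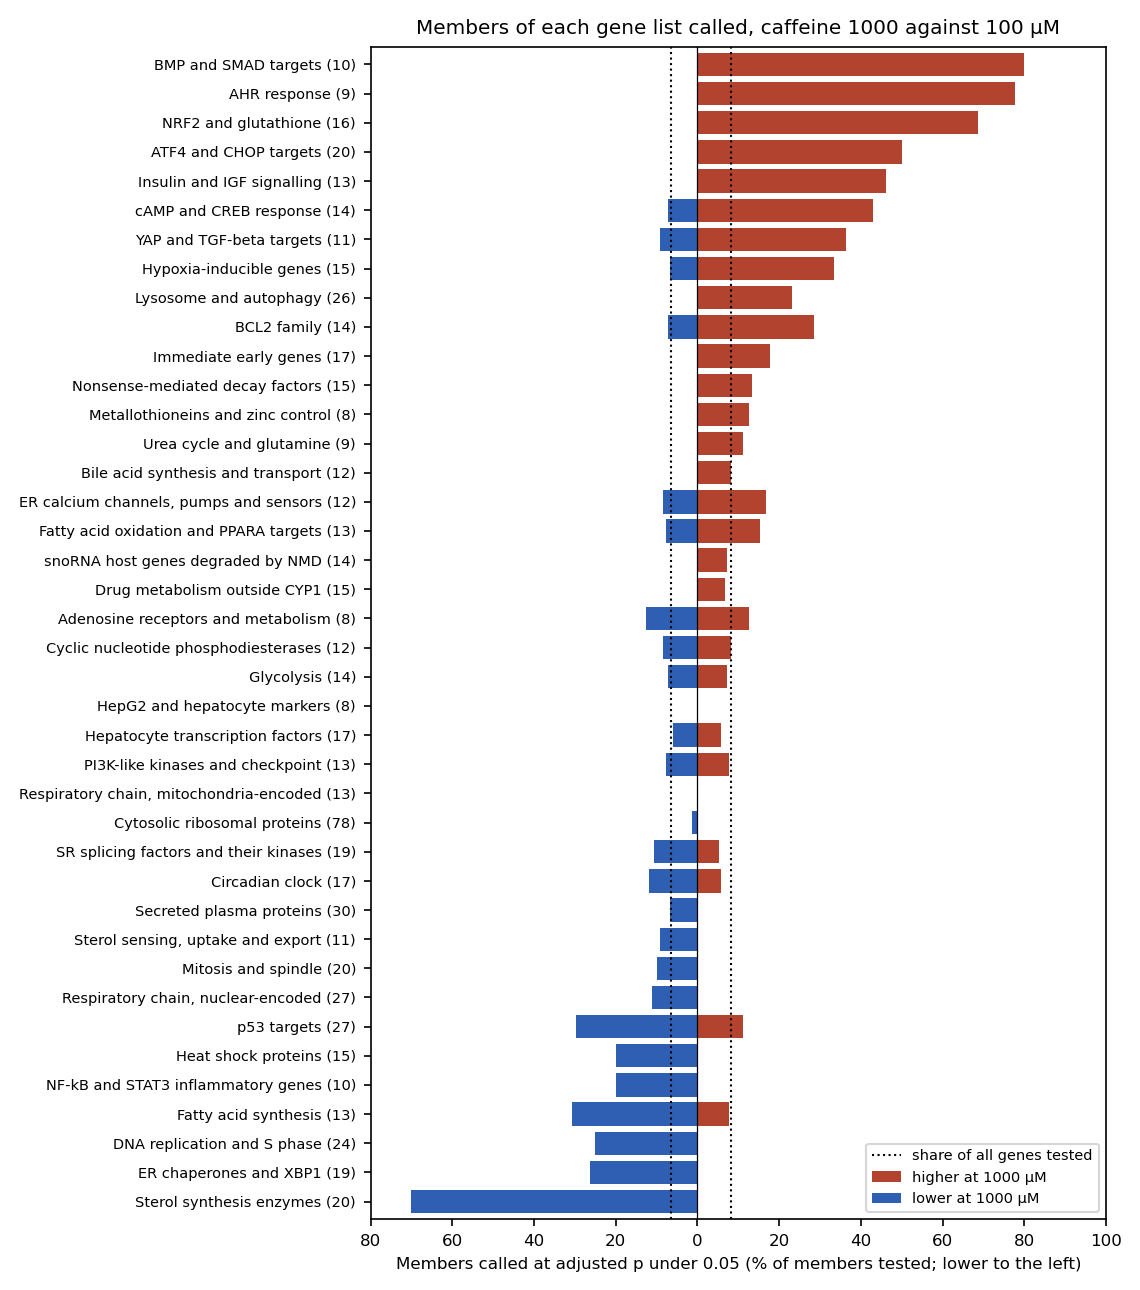
Share of the tested members of each of 40 gene lists called in 1000 against 100 µM caffeine (x axis, percent; bars to the right higher and to the left lower at 1000 µM; number tested in brackets; the list of markers of other cell types, with 4 tested, is not drawn). Dotted lines mark the shares over all genes tested, 8.15% higher and 6.55% lower; 8 of 10 BMP and SMAD targets, 7 of 9 AHR response genes and 11 of 16 NRF2 and glutathione genes lie to the right, and 14 of 20 sterol synthesis enzymes lie to the left.

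The AHR response was higher at 1000 µM. AHR is a ligand-activated transcription factor that pairs with ARNT and switches on enzymes of foreign compound metabolism. Of 9 members tested of 10 listed, 7 rose and none fell, with a median log2 fold change of 0.53. CYP1A1, a monooxygenase and the classic AHR target, stood at 135, 144 and 134 CPM at 100 µM and 653, 611 and 604 CPM at 1000 µM. Every library at the higher dose was more than 4 times as high as any at the lower (log2 fold change 2.17 ± 0.11 SE, adjusted p = 6.66e-10). CYP1A1 had already risen at the preceding step by 1.08 ± 0.11 (adjusted p = 1.47e-04), and the last step was larger by 1.1 ± 0.19 on the log2 scale (adjusted p = 0.0104). That difference was not called when any 1 of the 3 libraries at 100 µM was left out.

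The window around the CYP1A1 start is printed since it holds the core of the xenobiotic response element, the 5 letters GCGTG, to which the AHR and ARNT pair is known to bind. The sequence is RefSeq's, GRCh38.p14, minus strand of chr15:74725519-74725778, from 250 bases before the annotated start to 10 after it, with the match, at base -57 from the start, in capitals.

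CYP1A1: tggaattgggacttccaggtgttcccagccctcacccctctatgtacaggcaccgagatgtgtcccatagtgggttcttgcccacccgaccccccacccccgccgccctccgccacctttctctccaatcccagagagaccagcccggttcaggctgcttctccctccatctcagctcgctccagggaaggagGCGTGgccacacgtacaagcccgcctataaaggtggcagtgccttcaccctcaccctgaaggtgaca

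GCGTG on either strand was found in windows of 6 of the 8 AHR response genes with a RefSeq window (250 bases before to 50 after a start). Among all 35116 windows 36.5% hold it, and 40.6% of all genes with a window. A match of 5 letters is a description of the sequence and not a site.

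AHRR, the repressor that AHR itself induces, was at 0.262, 0.233 and 0.248 CPM at 100 µM and 1.76, 1.85 and 0.888 CPM at 1000 µM, with every library at the higher dose above every library at the lower (log2 fold change 2.58 ± 0.63 SE, adjusted p = 0.0102). Its exons overlap those of PDCD6 on the same strand, so its counts are uncertain, and the call was lost without replicate 2 of 100 µM. CYP1A2, the main caffeine demethylase, was near the floor of counting at 0.233, 0.263 and 0.186 CPM at 100 µM and 0.939, 0.591 and 0.3804 CPM at 1000 µM (log2 fold change 1.47 ± 0.45 SE, adjusted p = 0.0332). It is a close paralog of CYP1A1, and reads of CYP1A1 could be assigned to it. ALDH3A1, an aldehyde dehydrogenase, was at 2.24, 2.63 and 2.27 CPM at 100 µM and 4.87, 5.49 and 5.17 CPM at 1000 µM (log2 fold change 1.12 ± 0.17 SE, adjusted p = 2.29e-04). AHR itself, the ADP-ribosyltransferase TIPARP that limits AHR, and the quinone reductase NQO1 rose (log2 fold changes 0.52, 0.53 and 0.47). The third CYP1 gene, CYP1B1, had 0 to 3 counts a library and was not tested. Leaving out replicate 1 or 2 of 100 µM left 4 and 3 of the 7 calls, and CYP1A1, ALDH3A1 and NQO1 were called in each fit without 1 library.

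Genes of the NRF2 response rose together. NRF2, encoded by NFE2L2, is held by KEAP1 and, when released, switches on genes that make and use glutathione and thioredoxin. Of 16 members tested, 11 rose and none fell, with a median log2 fold change of 0.48. For 11 members the libraries at 1000 µM all lay above those at 100 µM, beside 18.5% of all genes. The catalytic and modifier subunits of glutamate-cysteine ligase, the first enzyme of glutathione synthesis, both rose. GCLC was at 106, 102 and 99.3 CPM at 100 µM and 225, 279 and 279 CPM at 1000 µM (log2 fold change 1.35 ± 0.12 SE, adjusted p = 1.47e-06). GCLM was at 33.3, 28.7 and 34.8 CPM at 100 µM and 74.9, 103 and 107 CPM at 1000 µM (log2 fold change 1.56 ± 0.16 SE, adjusted p = 5.33e-06). In both, replicate 1 was the lowest of the 3 libraries at the higher dose and still more than 2 times the highest at the lower dose. GCLC exons overlap AL033397.1 on the same strand.

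On the thioredoxin side, TXNRD1, thioredoxin reductase 1, stood at 211, 196 and 199 CPM at 100 µM and 499.8, 678 and 576 CPM at 1000 µM (log2 fold change 1.53 ± 0.16 SE, adjusted p = 4.49e-06). SRXN1, sulfiredoxin, which repairs peroxiredoxins, stood at 115, 106 and 95.02 CPM at 100 µM and 214, 316 and 261 CPM at 1000 µM (log2 fold change 1.33 ± 0.13 SE, adjusted p = 3.60e-06). The groups did not overlap in either gene, and replicate 2 was the highest at 1000 µM in both. OSGIN1, an oxidative stress induced growth inhibitor, was at 41.9, 43.8 and 38.3 CPM at 100 µM and 116, 113 and 99.2 CPM at 1000 µM, a 2.65-fold difference (adjusted p = 4.79e-07). SRXN1 and OSGIN1 overlap AL121758.1 and AC009119.2 on the same strand. SLC7A11, which imports cystine for glutathione, rose 2.61-fold, from 32.98, 33.1 and 35.97 to 74.8, 94.5 and 97.3 CPM (adjusted p = 4.06e-04). NFE2L2, KEAP1, HMOX1 (heme oxygenase 1), GSR (glutathione reductase) and NQO1 rose less (log2 fold changes 0.58, 0.42, 0.36, 0.49 and 0.47).

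No NRF2 member was called between 10 and 100 µM, where the median was 0.15. Against the mean of 0.01 to 10 µM, 1 member was called higher at 100 µM (median 0.09). In the difference of steps 5 passed: GCLC (1.2 ± 0.22, adjusted p = 0.0146), GCLM (1.32 ± 0.28, 0.0324), TXNRD1 (1.41 ± 0.28, 0.0195), SRXN1 (1.18 ± 0.23, 0.02005) and OSGIN1 (1.14 ± 0.21, 0.0146). Of the 4 that were refitted without each library, GCLC, TXNRD1, SRXN1 and OSGIN1, none kept the call when any 1 of the 100 µM libraries was left out. The list's calls in 1000 against 100 µM, in contrast, were 10 or 11 in every fit without 1 library.

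Windows of TXNRD1 and GCLM are shown for the core of the antioxidant response element, TGACNNNGC, the element that NRF2 binds with small MAF proteins. Both are RefSeq sequence of GRCh38.p14 from 250 bases before a start to 10 after it, TXNRD1 on the plus strand of chr12:104215529-104215788 and GCLM on the minus strand of chr1:93909421-93909680. Capitals mark matches on either strand, beginning at bases -99 and -8 in TXNRD1 and at -34 in GCLM. The window of another TXNRD1 start, on the plus strand of chr12:104286782-104287041, also holds a match, at -102, and is not printed.

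TXNRD1: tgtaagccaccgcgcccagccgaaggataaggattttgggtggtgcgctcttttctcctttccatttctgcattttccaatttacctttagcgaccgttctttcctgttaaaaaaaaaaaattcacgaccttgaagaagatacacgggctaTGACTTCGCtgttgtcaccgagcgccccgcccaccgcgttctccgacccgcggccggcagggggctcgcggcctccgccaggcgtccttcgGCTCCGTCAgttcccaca
GCLM: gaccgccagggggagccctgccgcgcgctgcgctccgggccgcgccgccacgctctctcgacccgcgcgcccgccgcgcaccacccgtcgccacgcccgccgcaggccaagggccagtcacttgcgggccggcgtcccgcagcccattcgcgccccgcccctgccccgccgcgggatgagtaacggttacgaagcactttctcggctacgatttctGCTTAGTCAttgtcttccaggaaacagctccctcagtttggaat

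A match stood in windows of 4 of the 11 NRF2 and glutathione genes that have one, GCLM, KEAP1, PGD and TXNRD1, and in 13.3% of all windows. The windows end 250 bases before the start, and elements farther away were not searched.

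Part of the ATF4 targets rose and part of the ER chaperones fell. ATF4 is the transcription factor of the integrated stress response, which raises genes of amino acid supply. ER chaperones answer the other arms of the unfolded protein response, through ATF6 and XBP1. Of 20 ATF4 and CHOP targets tested, 10 rose and none fell (median 0.51), against 0 risen and 5 fallen of 19 ER chaperones and XBP1 genes (median -0.22). ATF4 mRNA was at 595, 549 and 489.7 CPM at 100 µM and 868, 1159 and 848 CPM at 1000 µM (log2 fold change 0.82 ± 0.13 SE, adjusted p = 3.66e-04). STC2, stanniocalcin 2, a secreted glycoprotein, was at 107, 105 and 107 CPM at 100 µM and 162, 176 and 161 CPM at 1000 µM (log2 fold change 0.65 ± 0.08 SE, adjusted p = 3.21e-05).

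Amino acid genes were among those that rose. ASNS, asparagine synthetase, was at 62.1, 59.8 and 53.4 CPM at 100 µM and 82.05, 92.8 and 86.5 CPM at 1000 µM (log2 fold change 0.58 ± 0.1 SE, adjusted p = 6.18e-04), with AC079781.5 overlapping it on the same strand. MTHFD2, a mitochondrial folate enzyme, rose 1.82-fold and CARS1, the cysteinyl-tRNA synthetase, 1.37-fold. CHAC1, which degrades glutathione, was low and rose from 2.94, 2.48 and 2.48 to 7.16, 6.92 and 4.69 CPM (log2 fold change 1.25 ± 0.22 SE, adjusted p = 8.96e-04). Its replicate 3 at 1000 µM lay below the other two and above all 3 libraries at 100 µM. ATF3, SESN2 and VLDLR also rose (log2 fold changes 1.12, 0.46 and 0.56), and SLC7A11, given above with the NRF2 genes, was on this list too. Of the 10, SESN2 was called in the difference of steps (0.77 ± 0.16, adjusted p = 0.0281), and SESN2 was also on the p53 list. The count was 10 to 13 in the fits without 1 library.

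The CHAC1 window is given for TGATGNAA, a core of the amino acid response element bound by ATF4. It is the plus strand of chr15:40953221-40953480 of GRCh38.p14, by RefSeq, from 250 bases before the start to 10 after it, with a match on the minus strand beginning at base -209 in capitals.

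CHAC1: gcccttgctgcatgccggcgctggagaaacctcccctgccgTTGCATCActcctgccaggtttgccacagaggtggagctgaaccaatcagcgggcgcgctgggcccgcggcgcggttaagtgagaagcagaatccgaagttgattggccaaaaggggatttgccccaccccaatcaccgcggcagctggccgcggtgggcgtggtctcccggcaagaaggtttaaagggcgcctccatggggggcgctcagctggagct

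Windows of 6 of the 18 ATF4 and CHOP targets that have one hold TGATGNAA (ASNS, ATF3, CARS1, CHAC1, FGF21 and SLC3A2), beside 3.62% of all windows and 4.46% of all genes with a window. FGF21 had 0 to 2 counts a library and was not tested, and SLC3A2 had a log2 fold change of 0.47 (adjusted p = 0.0762).

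Among the ER chaperones, HSPA5, or BiP, the main chaperone of the ER lumen, was at 1644, 1552 and 1482 CPM at 100 µM and 1262, 1269 and 1229 CPM at 1000 µM (log2 fold change -0.32 ± 0.08 SE, adjusted p = 0.0108). MANF, a secreted ER stress factor, was at 84.03, 75.4 and 77.4 CPM at 100 µM and 50.96, 53.8 and 44.2 CPM at 1000 µM (log2 fold change -0.67 ± 0.12 SE, adjusted p = 0.00151). The groups did not overlap for either gene. SDF2L1, CRELD2 and HERPUD1 fell (log2 fold changes -0.89, -0.51 and -0.41). The list rested on few libraries: without replicate 3 of 1000 µM 1 member was called and without replicate 1 of 100 µM 2 were, and MANF was called in every fit without 1 library, HSPA5 in 4 of 6. Heat shock proteins of the cytosol gave 0 risen and 3 fallen of 15 tested, HSPA8, DNAJA1 and DNAJB1, with 1 call left without replicate 1 or 2 of 100 µM or replicate 3 of 1000 µM. HSPA8, the constitutive HSC70, was at 3148, 2996 and 2828 CPM at 100 µM and 2002, 2229 and 2035 CPM at 1000 µM (log2 fold change -0.52 ± 0.08 SE, adjusted p = 2.31e-04). It hosts snoRNAs that overlap it on the same strand.

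Autophagy genes that rose included initiation, cargo and lipidation factors. Autophagy delivers cytoplasm to lysosomes, and the kinase ULK1 starts it. Of 26 lysosome and autophagy genes tested, 6 rose and none fell (median 0.23), and for 17 members the 1000 µM libraries lay wholly above the 100 µM libraries, beside 18.5% of all genes. GABARAPL1, an ATG8-family protein that coats the autophagosome, was at 12.4, 11.9 and 11.99 CPM at 100 µM and 31.2, 42.8 and 37.1 CPM at 1000 µM (log2 fold change 1.61 ± 0.11 SE, adjusted p = 4.00e-08). Between 10 and 100 µM it had a log2 fold change of 0.09 ± 0.11, and the difference of steps, 1.52 ± 0.19 (adjusted p = 0.00124), was called in every fit without 1 library. ULK1 was at 19.4, 19.9 and 24.6 CPM at 100 µM and 60.2, 39.1 and 44.5 CPM at 1000 µM (log2 fold change 1.17 ± 0.17 SE, adjusted p = 1.44e-04), with replicate 1 the highest at 1000 µM. SQSTM1, the cargo receptor p62 and also an NRF2 target, was at 323, 315 and 293 CPM at 100 µM and 538, 577 and 519 CPM at 1000 µM (log2 fold change 0.81 ± 0.12 SE, adjusted p = 1.34e-04). WIPI1, NPC1 and UVRAG rose (log2 fold changes 0.56, 0.43 and 0.34). TFEB, the transcription factor that drives lysosomal genes, did not pass (log2 fold change -0.33 ± 0.14 SE, adjusted p = 0.113). The count was 4 without replicate 1 of 100 µM.

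**Figure D2:**
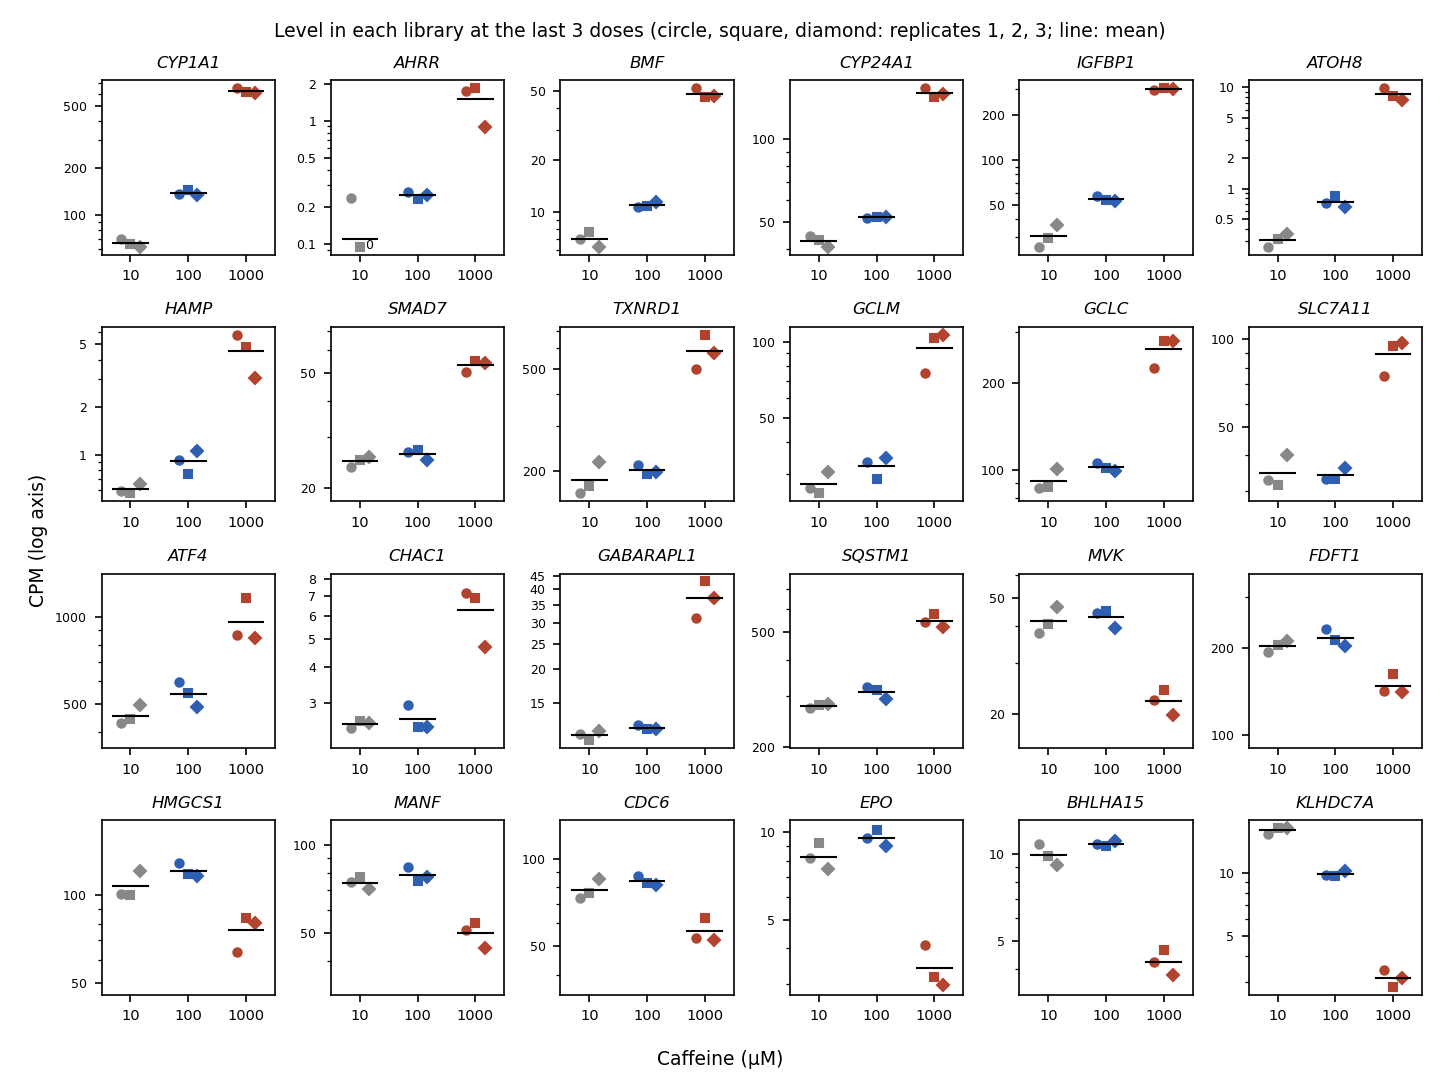
Level of 24 genes in each library at 10, 100 and 1000 µM caffeine (x axis; y axis CPM on a log scale, with its own range in each panel; a 0 at the foot marks a library without counts). In all 24 panels the 3 libraries at 1000 µM lie apart from the 3 at 100 µM; CYP1A1 goes from 135, 144 and 134 CPM to 653, 611 and 604 CPM, and MVK from 44.7, 45.3 and 39.5 CPM to 22.3, 24.2 and 19.8 CPM.

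Targets of bone morphogenetic protein (BMP) signalling rose. BMP ligands act through SMAD1, SMAD5 and SMAD9, and in hepatocytes this pathway drives hepcidin, the hormone of iron control. Of 10 BMP and SMAD targets tested, 8 rose and none fell, with the highest median of the 41 lists, 0.96. HAMP, which encodes hepcidin, was at 0.932, 0.759 and 1.06 CPM at 100 µM and 5.75, 4.78 and 3.04 CPM at 1000 µM (log2 fold change 2.3 ± 0.23 SE, adjusted p = 4.15e-06). ATOH8, a basic helix-loop-helix transcription factor, was at 0.729, 0.846 and 0.652 CPM at 100 µM and 9.89, 8.298 and 7.51 CPM at 1000 µM, a 11.5-fold difference (adjusted p = 2.93e-07). Groups were far apart in both genes, though both were low.

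More abundant members moved the same way. ID1, an inhibitor of DNA binding, was at 484, 484 and 398 CPM at 100 µM and 892, 891 and 768 CPM at 1000 µM (log2 fold change 0.9 ± 0.18 SE, adjusted p = 0.00285), and its relatives ID2 and ID3 rose (log2 fold changes 0.77 and 0.68). SMAD7, the inhibitory SMAD, was at 26.8, 27.2 and 25.04 CPM at 100 µM and 50.5, 54.9 and 53.95 CPM at 1000 µM (log2 fold change 1.01 ± 0.12 SE, adjusted p = 2.67e-05). BAMBI, a decoy receptor, was at 36.5, 33.9 and 30.6 CPM at 100 µM and 67.8, 80.2 and 74.97 CPM at 1000 µM (log2 fold change 1.14 ± 0.1 SE, adjusted p = 1.25e-06), and SMAD9 rose 2.47-fold. The preceding step gave no call and a median of 0.37, with ID1 at 0.42 ± 0.18. In the difference of steps SMAD7 (0.93 ± 0.22, adjusted p = 0.0462) and ATOH8 (2.29 ± 0.53, adjusted p = 0.04697) were called, and for ATOH8 it was lost in every fit without 1 library and for SMAD7 in 8 of 9. The 8 calls of the last step were 7 or 8 in those fits.

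TGF-beta and YAP targets were mixed: 4 of 11 tested rose and 1 fell (median 0.1). Part of this list had already changed at 100 µM. Against the mean of 0.01 to 10 µM, 5 of the 11 were called at 100 µM, beside 0.447% of all genes. Of these, 1 was higher and 4 were lower, and the list's median was -0.36. The step from 10 to 100 µM gave 1 call, higher (median -0.27). SKIL, a repressor of SMAD signalling that TGF-beta induces, was at 18.9, 15.8 and 18.2 CPM at 100 µM and 45.97, 51.2 and 60.7 CPM at 1000 µM (log2 fold change 1.58 ± 0.22 SE, adjusted p = 1.20e-04). TGFBI and the receptor kinase AXL also rose (log2 fold changes 0.32 and 0.57). CCN2, the first gene on the list and a standard YAP target, was at 306, 317 and 289.5 CPM at 100 µM and 296, 299.5 and 303 CPM at 1000 µM, with overlapping groups (log2 fold change -0.02 ± 0.07 SE, adjusted p = 0.864). AMOTL2, another YAP target, fell (log2 fold change -0.75, adjusted p = 0.00377), and RPL39P5 overlaps it on the same strand.

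Of 13 insulin and IGF signalling genes tested, 6 rose and none fell (median 0.34). IGFBP1, a secreted IGF-binding protein that hepatocytes make when insulin is low, was at 57.5, 53.4 and 52.6 CPM at 100 µM and 294, 306 and 299.8 CPM at 1000 µM, a 5.504-fold difference (log2 fold change 2.46 ± 0.17 SE, adjusted p = 4.39e-08). Its preceding step, 0.82 ± 0.16, did not pass (adjusted p = 0.103), and the last step exceeded it by 1.64 ± 0.29 (adjusted p = 0.0124), a call lost when any 1 of the 100 µM libraries was left out. GRB10, an adaptor that restrains the insulin receptor, was at 7.25, 6.86 and 6.99 CPM at 100 µM and 16.8, 13.8 and 13.5 CPM at 1000 µM (log2 fold change 1.06 ± 0.1 SE, adjusted p = 2.05e-06). IGF1R was at 75.2, 81.2 and 94.9 CPM at 100 µM and 169.8, 133 and 162 CPM at 1000 µM (log2 fold change 0.89 ± 0.11 SE, adjusted p = 5.36e-05). INSR, FOXO3 and TRIB1 rose (log2 fold changes 0.38, 0.32 and 0.46). IGF1R and GRB10 were called in the difference of steps too (0.98 ± 0.2, adjusted p = 0.0248, and 0.88 ± 0.18, adjusted p = 0.0234), and lost that call in 4 and 3 of 9 fits without 1 library, 2 and 3 of them without a 100 µM library. INSR lost its call in 1000 against 100 µM in 4 of 6 such fits.

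Genes of the cyclic AMP and CREB response, induced genes and regulators of CREB together, gave 6 risen and 1 fallen of 14 tested (median 0.42). TAT, tyrosine aminotransferase, was at 4.604, 5.13 and 4.88 CPM at 100 µM and 9.04, 9.26 and 8.72 CPM at 1000 µM (log2 fold change 0.89 ± 0.13 SE, adjusted p = 1.44e-04). G6PC1, glucose-6-phosphatase, was low, at 0.495, 0.467 and 0.435 CPM at 100 µM and 0.821, 1.13 and 1.17 CPM at 1000 µM (log2 fold change 1.16 ± 0.24 SE, adjusted p = 0.00331). Both take part in the fasting response of liver, and neither had overlapping groups. PPARGC1A, a coactivator of gluconeogenic genes, was at 8.25, 9.22 and 12.8 CPM at 100 µM and 15.4, 12.98 and 18.6 CPM at 1000 µM (log2 fold change 0.63 ± 0.17 SE, adjusted p = 0.0167). That call was lost without replicate 1 or 2 of 100 µM or replicate 3 of 1000 µM. SIK2 and SIK3, kinases that hold back the CREB coactivators, rose (log2 fold changes 0.49 and 0.74). DUSP1, a phosphatase of MAP kinases, also rose (log2 fold change 0.72). PER1 fell (log2 fold change -0.52), a call lost without replicate 2 or 3 of either dose, and AC129492.3 overlaps it on the same strand. NR4A2 and NR4A3 had at most 7 counts a library at these doses.

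Of the cyclic AMP genes, SIK2 (0.8 ± 0.18, adjusted p = 0.0371), TAT (1.04 ± 0.23, adjusted p = 0.0322) and DUSP1 (0.88 ± 0.21, adjusted p = 0.0497) passed the difference of steps. Without 1 library at a time, TAT lost it in 7 of 9 fits and DUSP1 in 8.

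Genes that encode the known targets of caffeine were called at shares of 15.4% to 25% a list, beside 14.7% of all genes, with calls in both directions. Of 12 cyclic nucleotide phosphodiesterases tested, 1 rose, PDE8A (53.8, 56.4 and 60.98 CPM at 100 µM and 73.7, 67.7 and 78.3 CPM at 1000 µM, log2 fold change 0.36 ± 0.08 SE, adjusted p = 0.00576), and 1 fell, PDE6D (log2 fold change -0.53), and PDE4D was at 15.1, 15.03 and 16.5 CPM at 100 µM and 12.9, 14.04 and 17.4 CPM at 1000 µM (log2 fold change -0.07 ± 0.15 SE, adjusted p = 0.7897). PDE6D was not called without replicate 1 of 100 µM or replicate 3 of 1000 µM. Of 8 genes of adenosine receptors and metabolism tested, 1 rose and 1 fell. ADORA2B, a receptor coupled to cyclic AMP production, was at 22, 21.4 and 19.6 CPM at 100 µM and 39.4, 47.9 and 41.7 CPM at 1000 µM, with no overlap (log2 fold change 1.03 ± 0.11 SE, adjusted p = 4.15e-06). Its difference of steps was 0.82 ± 0.18 (adjusted p = 0.0384), lost in 8 of 9 fits without 1 library. SLC29A2, a nucleoside transporter, fell (log2 fold change -0.63), a call lost in 5 of 6 such fits. ADORA1 and ADORA3, with at most 12 and 2 counts a library at these doses, were not tested.

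ER calcium channels, pumps and sensors gave 2 risen and 1 fallen of 12 tested. ITPR1, an inositol trisphosphate receptor that releases calcium from the ER, was at 24.01, 22.9 and 29.4 CPM at 100 µM and 55.1, 51.7 and 51.9 CPM at 1000 µM (log2 fold change 1.06 ± 0.15 SE, adjusted p = 1.73e-04). Between 10 and 100 µM it had a log2 fold change of -0.28 ± 0.15, and the difference of steps, 1.33 ± 0.27 (adjusted p = 0.0242), was lost without replicate 1 or 2 of 100 µM, replicate 3 of 1000 µM or replicate 2 or 3 of 10 µM. STIM2, a calcium sensor of the ER, rose (log2 fold change 0.47, lost without replicate 3 of 1000 µM), and ORAI3, a plasma membrane calcium channel subunit, fell (log2 fold change -0.47), with AC135048.1 overlapping it on the same strand. The ryanodine receptor genes RYR1 and RYR2, the channels caffeine is known to open in muscle, had 0 or 1 count a library at both doses. The PI3K-like kinases and checkpoint list gave 1 risen, RICTOR of the second mTOR complex (log2 fold change 0.73, lost without replicate 1 of 100 µM or 3 of 1000 µM), and 1 fallen, ATRIP (log2 fold change -0.43, with TREX1 overlapping it), of 13 tested. ATM was at 47.2, 51.2 and 53.9 CPM at 100 µM and 56.03, 62.2 and 70.9 CPM at 1000 µM (log2 fold change 0.31 ± 0.17 SE, adjusted p = 0.245).

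Sterol synthesis was lower at 1000 µM. The mevalonate pathway makes cholesterol from acetyl-CoA, and its genes are driven together by SREBP2. Of 20 enzymes tested, 14 fell and none rose, with a median of -0.47. For 15 the libraries at the higher dose all lay below, beside 18.3% of all genes. The early enzymes HMGCS1 and MVK stood at 129, 118 and 116 CPM and 44.7, 45.3 and 39.5 CPM at 100 µM. At 1000 µM HMGCS1 was at 63.9, 83.5 and 80.2 CPM (log2 fold change -0.68 ± 0.14 SE, adjusted p = 0.00321) and MVK, mevalonate kinase, at 22.3, 24.2 and 19.8 CPM (log2 fold change -0.96 ± 0.12 SE, adjusted p = 2.40e-05). IDI1, isopentenyl diphosphate isomerase, was at 143, 129.5 and 128 CPM at 100 µM and 76.3, 84.9 and 83.8 CPM at 1000 µM (log2 fold change -0.71 ± 0.13 SE, adjusted p = 0.001098).

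At the branch to sterols, FDFT1, squalene synthase, was at 232, 213 and 202 CPM at 100 µM and 142, 162 and 140.3 CPM at 1000 µM (log2 fold change -0.54 ± 0.09 SE, adjusted p = 3.51e-04). SQLE, squalene epoxidase, was at 135, 130.3 and 124 CPM at 100 µM and 86.3, 98.4 and 102 CPM at 1000 µM (log2 fold change -0.44 ± 0.09 SE, adjusted p = 0.00312). MVD, FDPS, LSS, TM7SF2, MSMO1, NSDHL, HSD17B7, EBP and DHCR7 fell, with log2 fold changes between -0.33 (DHCR7) and -0.77 (MSMO1). VPS51 overlaps TM7SF2 on the same strand.

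Between 10 and 100 µM no sterol enzyme was called and the median was 0.11. The difference of steps passed for MVK (-1.01 ± 0.19, adjusted p = 0.0195), lost without replicate 1 or 2 of 100 µM or replicate 2 of 10 µM, and FDFT1 (-0.63 ± 0.15, adjusted p = 0.0453), lost in 8 of 9 fits without 1 library. Without replicate 3 of 1000 µM, 9 of the 14 falls at the last step were called.

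The MVK window is shown for CCAAT, the box bound by NF-Y, a factor known to act beside SREBP. It is the plus strand of chr12:109573544-109573803 of GRCh38.p14, by RefSeq, from 250 bases before the start to 10 after it. Capitals mark 5 matches, of which the first begins at base -210 and the last at -46, and those written ATTGG are matches on the minus strand.

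MVK: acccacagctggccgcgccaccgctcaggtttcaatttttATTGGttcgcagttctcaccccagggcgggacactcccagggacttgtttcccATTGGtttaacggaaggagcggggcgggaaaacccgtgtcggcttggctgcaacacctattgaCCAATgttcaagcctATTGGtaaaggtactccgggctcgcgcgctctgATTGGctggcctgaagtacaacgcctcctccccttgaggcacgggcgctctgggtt

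CCAAT was found in windows of 13 of the 15 sterol enzymes that have one, beside 34.6% of all windows and 39.7% of all genes with a window. Of the 12 enzymes with a window that fell, 12 hold it, and the other is SC5D (log2 fold change 0.21 ± 0.15 SE, adjusted p = 0.385).

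Sterol sensing, uptake and export genes gave 1 call of 11 tested. Fatty acid synthesis gave 4 fallen and 1 risen of 13 tested (median -0.23). FASN, fatty acid synthase, was at 864, 988 and 1114 CPM at 100 µM and 804, 485 and 541 CPM at 1000 µM (log2 fold change -0.7 ± 0.16 SE, adjusted p = 0.00787), with replicate 1 at 1000 µM close to the lowest library at 100 µM. It lost its call without replicate 3 of 1000 µM, and the list then had 3. PNPLA3, a lipid droplet protein, FADS2, a desaturase, and SREBF1, the regulator of the pathway, fell (log2 fold changes -0.79, -0.54 and -0.53). PNPLA3 and FADS2 overlap SAMM50 and FEN1 on the same strand.

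In the other direction, GPAM, which starts glycerolipid synthesis, was at 412, 396 and 385 CPM at 100 µM and 734, 831 and 830 CPM at 1000 µM (log2 fold change 1.01 ± 0.12 SE, adjusted p = 2.91e-05). CPT1A, which admits fatty acids to mitochondria, was at 42.2, 42.8 and 43.4 CPM at 100 µM and 91.8, 76.1 and 69.4 CPM at 1000 µM (log2 fold change 0.88 ± 0.1 SE, adjusted p = 1.24e-05), and PLIN2, a lipid droplet coat protein, at 415, 427 and 400.5 CPM at 100 µM and 659, 747 and 711 CPM at 1000 µM (log2 fold change 0.77 ± 0.08 SE, adjusted p = 3.68e-06). No library of one dose reached those of the other in these genes. These 2 made up the rises among 13 fatty acid oxidation and PPARA targets, and FABP1, the liver fatty acid binding protein, fell (log2 fold change -0.55), lost in 4 of 6 fits without 1 library. CPT1A and GPAM were called in the difference of steps (0.9 ± 0.17, adjusted p = 0.0195, and 0.94 ± 0.22, adjusted p = 0.04199). CPT1A lost it when any 1 of the 100 µM libraries was left out, and GPAM in 8 of 9 fits without 1 library.

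Hypoxia-inducible genes split. Of 15 tested, 5 rose and 1 fell (median 0.2). PFKFB3, which makes the activator of glycolysis fructose 2,6-bisphosphate, was at 10.96, 10.7 and 10.3 CPM at 100 µM and 17.4, 19.8 and 20.1 CPM at 1000 µM (log2 fold change 0.84 ± 0.13 SE, adjusted p = 2.31e-04). KDM3A, a histone demethylase, DDIT4, an mTOR inhibitor, NDRG1 and EGLN1, an oxygen sensor, rose (log2 fold changes 0.59, 0.68, 0.48 and 0.35). PFKFB4, an isoform of PFKFB3, was at 24.8, 26.4 and 26.6 CPM at 10 µM and 32.3, 34.8 and 35.5 CPM at 100 µM and 24.99, 23.3 and 24.9 CPM at 1000 µM (log2 fold change -0.49 ± 0.08 SE, adjusted p = 5.89e-04). It was thus highest at 100 µM, its preceding step of 0.4 ± 0.08 did not pass (adjusted p = 0.113), and the difference of steps did (-0.89 ± 0.14, adjusted p = 0.00486). UCN2 overlaps it on the same strand, and the difference was lost without replicate 2 of 100 µM. VEGFA did not pass (log2 fold change 0.15 ± 0.08 SE, adjusted p = 0.226). EPO, erythropoietin, a hormone that HepG2 cells make and not a member of the list, was at 9.59, 10.2 and 9.01 CPM at 100 µM and 4.11, 3.18 and 2.98 CPM at 1000 µM, 2.803-fold lower (log2 fold change -1.49 ± 0.16 SE, adjusted p = 6.24e-06). Its difference of steps was -1.7 ± 0.26 (adjusted p = 0.00464), lost without replicate 2 of 100 µM. Glycolysis gave 1 risen, the glucose transporter SLC2A1 (log2 fold change 0.63, overlapped by AC099795.1), and 1 fallen, ALDOA (log2 fold change -0.46, overlapped by AC093512.2 and lost in 5 of 6 fits without 1 library), of 14 tested, and HK2 was at 196, 196 and 201 CPM at 100 µM and 202, 202 and 187 CPM at 1000 µM.

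The p53 targets gave 8 fallen and 3 risen of 27 tested (median -0.13), and part of this list had changed at the preceding step. CDKN1A, the cell cycle inhibitor p21, was at 143, 151 and 172 CPM at 10 µM and 110.4, 111 and 105 CPM at 100 µM and 82.05, 86.8 and 75.4 CPM at 1000 µM (log2 fold change -0.42 ± 0.08 SE, adjusted p = 0.00252). The preceding step of CDKN1A was -0.51 ± 0.08 (adjusted p = 0.0302), and the steps did not differ by the test (0.1 ± 0.14, adjusted p = 0.7996). BTG2, an antiproliferative protein, was at 20.98, 23.2 and 21.7 CPM at 10 µM and 14.9, 12.8 and 13.4 CPM at 100 µM and 8.13, 8.15 and 7.58 CPM at 1000 µM (log2 fold change -0.78 ± 0.1 SE, adjusted p = 6.99e-05), with a preceding step of -0.68 ± 0.1 (adjusted p = 0.0203). POLH, a translesion polymerase, had log2 fold changes of -0.51 at the last step and -0.44 ± 0.08 at the one before (adjusted p = 2.96e-04 and 0.0471). The groups of these 3 genes were in order of dose with no overlap.

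Other p53 targets fell at the last step without a call before: DDB2 (log2 fold change -0.46), FAS (log2 fold change -0.51), PHLDA3 (log2 fold change -0.59), FDXR (log2 fold change -0.54) and BAX (log2 fold change -0.45). GDF15, a stress cytokine that ATF4 also induces, was at 266, 263 and 262 CPM at 100 µM and 674, 442 and 489 CPM at 1000 µM (log2 fold change 1.02 ± 0.22 SE, adjusted p = 0.00507), and TP53INP1 and SESN2 rose (log2 fold changes 0.94 and 0.46). TP53INP1 and SESN2 passed the difference of steps, at 1.13 ± 0.26 (adjusted p = 0.04097) for TP53INP1, a call lost in 7 of 9 fits without 1 library. The BCL2 family gave 4 risen and 1 fallen of 14. BMF, a BH3-only protein that promotes apoptosis, was at 6.92, 7.66 and 6.28 CPM at 10 µM and 10.7, 10.8 and 11.5 CPM at 100 µM and 52.3, 46.2 and 47.2 CPM at 1000 µM, a 4.41-fold difference at the last step (log2 fold change 2.14 ± 0.1 SE, adjusted p = 5.15e-10). Its preceding step was 0.66 ± 0.1 (adjusted p = 0.0203), and the difference of steps, 1.48 ± 0.18 (adjusted p = 0.00102), was called in every fit without 1 library. BCL2L11, PMAIP1 and BCL2L2 rose (log2 fold changes 0.41, 1.57 and 0.52), and BCL2L2-PABPN1 overlaps the last of them, which lost its call without replicate 3 of 100 µM or 2 of 1000 µM. Without replicate 2 of 1000 µM 3 of the 5 were called.

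Part of the DNA replication and S phase genes fell. None of 24 tested rose, 6 fell and 18 were not called, beside 6.55% of all genes called lower. Of the 24 fold changes 22 were below 0. Their median was -0.21, beside -0.00593 for all genes, and the median size of change of all genes was 0.248. CDC6, which loads the replicative helicase, was at 87.7, 82.5 and 81.5 CPM at 100 µM and 53.6, 62.8 and 52.8 CPM at 1000 µM (log2 fold change -0.57 ± 0.09 SE, adjusted p = 2.65e-04). GINS1 and GINS2, subunits of that helicase's GINS complex, fell (log2 fold changes -0.53 and -0.61). So did MCM10, CCNE1 and RRM2, the small subunit of ribonucleotide reductase (log2 fold changes -0.32, -0.47 and -0.38). MCM2 was at 192, 207 and 204 CPM at 100 µM and 193, 214 and 210.2 CPM at 1000 µM, with overlapping groups (log2 fold change 0.03 ± 0.11 SE, adjusted p = 0.874). CDC6 and RRM2 passed the difference of steps (-0.67 ± 0.15, adjusted p = 0.0371, and -0.54 ± 0.12, adjusted p = 0.0371), and lost it in 7 and 8 of 9 fits without 1 library. The 6 calls of the last step were 6 or 7 in such fits. POLA2, a subunit of DNA polymerase alpha that was not on the list, fell (log2 fold change -1.01), with a difference of steps of -1.12 ± 0.2 (adjusted p = 0.01103), lost without replicate 1 or 2 of 100 µM. AP000944.2 overlaps it on the same strand. Mitosis and spindle genes gave 0 risen and 2 fallen of 20 (AURKB, log2 fold change -0.3, and CDC20, -0.31), beside 14.7% of all genes called, and no call without replicate 1 or 2 of 100 µM or replicate 3 of 1000 µM. PLK1 was at 258, 280.5 and 294 CPM at 100 µM and 286, 198 and 223 CPM at 1000 µM.

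**Figure D3:**
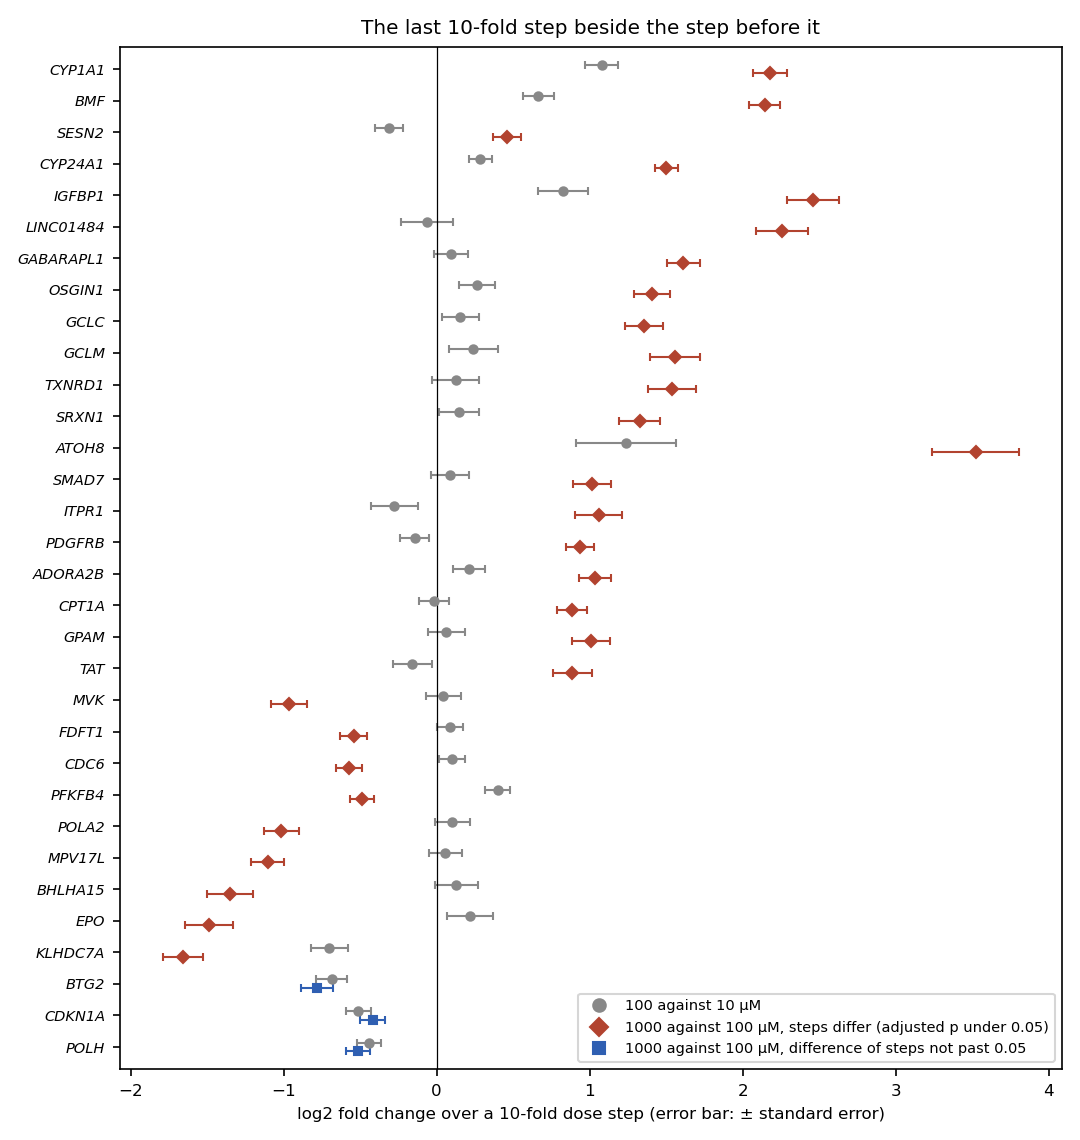
Log2 fold change (x axis, ± standard error) of 32 genes over the step from 10 to 100 µM (grey circles) and from 100 to 1000 µM (red diamonds where the difference of the steps passed an adjusted p of 0.05, blue squares where it did not). GABARAPL1 goes from 0.09 at the first step to 1.61 at the second, while BTG2 has -0.68 and -0.78.

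Of 134 named genes called between 100 and 1000 µM, 94 were called in all 6 fits that left out a library. Of 36 named genes called in the difference of steps, 6 were called in all 9 such fits, among them BMF, CYP24A1, GABARAPL1, LINC01484 and PDGFRB. CYP24A1, the enzyme that inactivates vitamin D, was at 44.6, 42.97 and 40.7 CPM at 10 µM and 51.95, 52.4 and 52.1 CPM at 100 µM and 154, 143 and 146 CPM at 1000 µM, a 2.83-fold difference with little spread at either dose (log2 fold change 1.5 ± 0.07 SE, adjusted p = 5.95e-10). Its preceding step was 0.29 ± 0.07 (adjusted p = 0.359), and the difference was 1.22 ± 0.13 (adjusted p = 3.90e-04). LINC01484, a long noncoding RNA, was at 4.49, 4.08 and 5.78 CPM at 100 µM and 24.1, 21.6 and 22.8 CPM at 1000 µM (log2 fold change 2.25 ± 0.17 SE, adjusted p = 1.17e-07). It had a log2 fold change of -0.06 ± 0.17 at the preceding step, and the difference of steps was 2.32 ± 0.3 (adjusted p = 0.00124).

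Genes with the largest rises were mostly low at 100 µM. WNT11, a secreted WNT ligand, was at 0.495, 0.233 and 0.248 CPM at 100 µM and 3.34, 2.54 and 2.599 CPM at 1000 µM (log2 fold change 3.1 ± 0.35 SE, adjusted p = 1.46e-05). MLPH, melanophilin, a linker of vesicle transport, was at 0.204, 0.146 and 0.124 CPM at 100 µM and 1.35, 1.08 and 1.05 CPM at 1000 µM (log2 fold change 2.84 ± 0.43 SE, adjusted p = 2.65e-04). SLC6A19, a transporter of neutral amino acids, was at 0.146, 0.408 and 0.155 CPM at 100 µM and 1.64, 1.601 and 1.58 CPM at 1000 µM, NLRC3, an NLR-family protein, at 0.3497, 0.7003 and 0.311 CPM at 100 µM and 3.46, 2.68 and 2.66 CPM at 1000 µM, and TMEM156 at 0.466, 0.7003 and 0.497 CPM at 100 µM and 2.67, 3.64 and 3.804 CPM at 1000 µM, with log2 fold changes of 2.74, 2.68 and 2.6. MYZAP, at 3.00, shares exons with the read-through gene GCOM1. In each the 1000 µM libraries stood above 0.9 CPM, against a floor of 3 counts of 0.0735 to 0.0926 CPM in these libraries.

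Among the falls, KLHDC7A was at 15.4, 16.4 and 16.4 CPM at 10 µM and 9.76, 9.66 and 10.2 CPM at 100 µM and 3.43, 2.83 and 3.14 CPM at 1000 µM (log2 fold change -1.66 ± 0.13 SE, adjusted p = 2.27e-07). KLHDC7A was also called at the preceding step, with a log2 fold change of -0.7 ± 0.12 (adjusted p = 0.0471). BHLHA15, or MIST1, a transcription factor of secretory cells that XBP1 induces, was at 10.8, 10.7 and 11.1 CPM at 100 µM and 4.25, 4.65 and 3.84 CPM at 1000 µM (log2 fold change -1.35 ± 0.15 SE, adjusted p = 8.87e-06). NFE2, a transcription factor of the blood lineages, was at 7.08, 6.94 and 7.83 CPM at 100 µM and 2.58, 2.17 and 2.16 CPM at 1000 µM (log2 fold change -1.66 ± 0.2 SE, adjusted p = 2.97e-05). In all 3 genes every 1000 µM library lay far below every 100 µM library. SPTLC3, a subunit of serine palmitoyltransferase, MAB21L4 and MPV17L fell (log2 fold changes -0.93, -1.27 and -1.1), as did CYSRT1 (log2 fold change -1.7). AC140504.1 overlaps MPV17L on the same strand. The difference of steps was called for BHLHA15 (-1.48 ± 0.24, adjusted p = 0.00738) and MPV17L (-1.16 ± 0.18, adjusted p = 0.00495), and both lost it without replicate 1 or 2 of 100 µM. MAB21L4 was called too (-1.06, adjusted p = 0.0137) and lost it without the same libraries. So were NFE2 (-1.67, adjusted p = 0.0213) and KLHDC7A (-0.96 ± 0.21, adjusted p = 0.0376), which kept that call in 4 and 1 of 9 fits without 1 library.

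**Figure D4:**
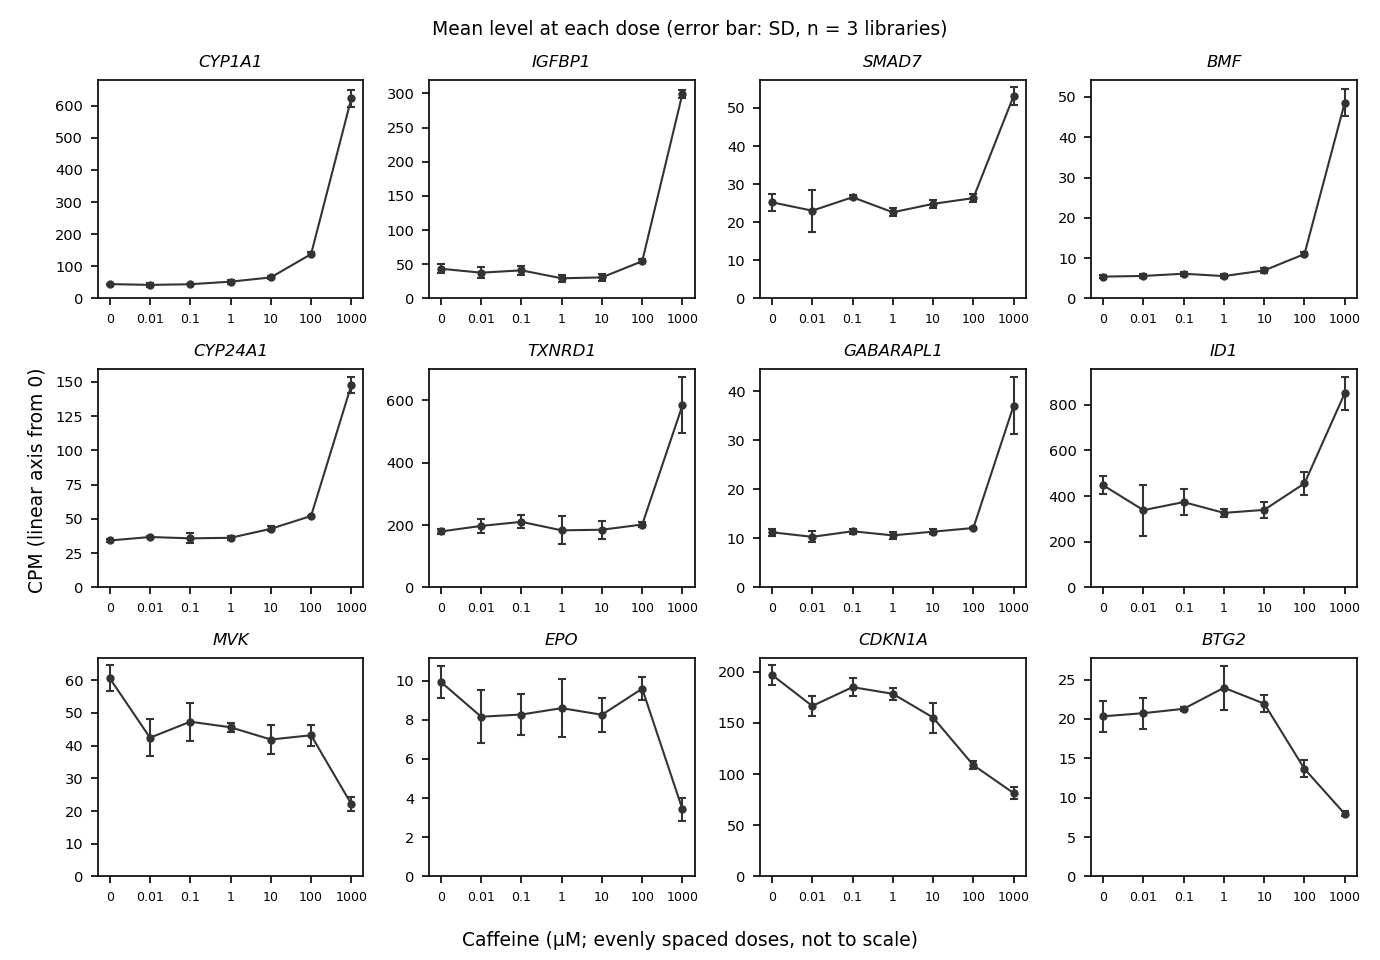
Mean level of 12 genes at each of the 7 doses (x axis, evenly spaced and not to scale; y axis CPM from 0; error bars SD, n = 3 libraries). GABARAPL1 and CYP24A1 stand at 12.1 and 52.2 CPM at 100 µM and 37.0 and 148 CPM at 1000 µM, while CYP1A1, CDKN1A and BTG2 already differ between 10 and 100 µM.

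Hepatocyte genes were called at shares of 0% to 11.8% a list, beside 14.7% of all genes. Whether these shares differ from that of all genes was not tested. None of 8 HepG2 and hepatocyte markers was called, with 1 call without replicate 3 of 100 µM and 1 by DESeq2, and their summed level was 15250 to 17210 CPM at 100 µM and 14570 to 16910 CPM at 1000 µM. ALB, albumin, was at 5455, 5217 and 5024 CPM at 100 µM and 4808, 6069 and 5936 CPM at 1000 µM, and AFP, alpha-fetoprotein, at 2538, 2229 and 2065 CPM at 100 µM and 1963, 2200 and 2325 CPM at 1000 µM. Secreted plasma proteins gave 0 risen and 2 fallen of 30 (APOC3, log2 fold change -0.75, and RBP4, -0.34), and none without replicate 2 of 100 µM or 3 of 1000 µM. Hepatocyte transcription factors gave 1 risen, ONECUT2 (log2 fold change 0.67, lost without replicate 1 or 2 of 100 µM or 3 of 1000 µM), and 1 fallen, the bile acid receptor NR1H4 (log2 fold change -0.74), of 17, and HNF4A was at 349, 366 and 379 CPM at 100 µM and 397, 356 and 361 CPM at 1000 µM. Bile acid synthesis and transport gave 1 risen of 12, the exporter ABCC2 at 693, 689 and 757 CPM at 100 µM and 1098, 1352 and 1313 CPM at 1000 µM (log2 fold change 0.82 ± 0.16 SE, adjusted p = 0.00191). Drug metabolism outside CYP1 gave 1 risen of 15, the efflux pump ABCB1 (log2 fold change 0.38). Urea cycle and glutamine genes gave 1 risen of 9, glutamine synthetase, GLUL (log2 fold change 0.2), and CPS1 was at 40.4, 39.7 and 42.5 CPM at 100 µM and 38.7, 43.4 and 40.2 CPM at 1000 µM. The ABCB1 and GLUL calls were lost in 3 and 5 of 6 fits without 1 library.

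Markers of other cell types were checked for the same libraries. Of 15 listed, 14 are in the table and 4 passed the filter. The summed level of the 14, most of it LYZ, was 1100 to 1205 CPM at 100 µM and 952 to 1307 CPM at 1000 µM. LYZ, lysozyme, had 28058 to 49382 counts a library, ACTA2 1136 to 2069, PDGFRB 141 to 359 and CD68, a lysosomal protein used as a macrophage marker, 1954 to 2951. CD68 did not pass (log2 fold change -0.4 ± 0.15 SE, adjusted p = 0.0828). The other 10 were at or near 0: COL1A2, COL3A1, KRT5, KRT14 and KRT7 had no count in the 6 libraries, PTPRC and VIM 0 to 1, VWF 2 to 5, COL1A1 0 to 6 and CDH5 0 to 9. PDGFRB, a growth factor receptor of stromal cells, rose from 4.43, 4.67 and 4.38 to 8.302, 8.84 and 8.62 CPM (log2 fold change 0.93 ± 0.09 SE, adjusted p = 3.02e-06), and ACTA2, an actin of smooth muscle, fell (log2 fold change -0.59). The PDGFRB difference of steps was 1.08 ± 0.16 (adjusted p = 0.00464).

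The lists of signalling, clock, RNA and metal genes gave 1 to 3 calls each, and over all genes 14.7% were called. Immediate early genes gave 3 risen of 17 (ATF3, DUSP1 and DUSP6), and FOS was at 19.2, 21.6 and 33.1 CPM at 100 µM and 42.5, 45.3 and 32.97 CPM at 1000 µM, with overlapping groups (log2 fold change 0.71 ± 0.24 SE, adjusted p = 0.0555). DESeq2 called 6 of the 17, all higher and FOS among them. With another tool, scaling, filter, sample set, block, covariate or depth, FOS stayed uncalled in 3 of 10 fits. It was also called without replicate 3 of 100 µM. DUSP6, an ERK phosphatase, was at 124, 125 and 125 CPM at 100 µM and 164, 180.2 and 181 CPM at 1000 µM (log2 fold change 0.49 ± 0.07 SE, adjusted p = 2.44e-04), with a difference of steps of 0.67 ± 0.13 (adjusted p = 0.0195) that was lost when any 1 of the 100 µM libraries was left out. The circadian clock gave 1 risen, CRY1 (log2 fold change 0.66), and 2 fallen, PER1 and DBP (log2 fold change -0.77, lost without replicate 1 of 100 µM or 2 of 1000 µM), of 17, and 1 call without replicate 2 of 1000 µM. NF-kB and STAT3 inflammatory genes gave 2 fallen of 10, BIRC3 (log2 fold change -1.25) and ICAM1 (log2 fold change -0.36), the latter lost in 5 of 6 fits without 1 library, and NFKBIA did not pass (log2 fold change 0.25).

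SR splicing factors and their kinases gave 1 risen, CLK1 (log2 fold change 0.37), and 2 fallen, SRSF2 (log2 fold change -0.44) and TRA2B (log2 fold change -0.3), of 19, all lost in some fit without 1 library. Nonsense-mediated decay factors gave 2 risen of 15, SMG1 (log2 fold change 0.8) and UPF2 (log2 fold change 0.4), and none without replicate 1 or 2 of 100 µM or replicate 3 of 1000 µM. The snoRNA host genes degraded by that pathway gave 1 risen of 14, SNHG7 (log2 fold change 0.87), whose exons hold snoRNAs, and GAS5 did not pass (log2 fold change 0.32). Metallothioneins and zinc control gave 1 risen of 8, the zinc exporter SLC30A1 at 47.3, 40.4 and 42.03 CPM at 100 µM and 59.8, 70.3 and 69.7 CPM at 1000 µM (log2 fold change 0.62 ± 0.13 SE, adjusted p = 0.00409), and MT2A was at 242, 243 and 234 CPM at 100 µM and 252, 186 and 183 CPM at 1000 µM.

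Genes of protein and energy supply were called at shares of 0% to 11.1% a list, beside 14.7% of all genes, a difference that was not tested. Of 78 cytosolic ribosomal proteins 1 fell, RPL35 (log2 fold change -0.64), with 54 fold changes below 0 and a median of -0.12. The count was 0 without replicate 1 or 2 of 100 µM or replicate 3 of 1000 µM and 6 without replicate 1 of 1000 µM. Nuclear-encoded respiratory chain genes gave 3 fallen of 27 (NDUFS8, log2 fold change -0.6, NDUFB10, -0.61, and ATP5F1D, -0.87), and none without replicate 3 of 1000 µM. None of 13 mitochondria-encoded genes was called, and MT-ND1 ranged from 4483 to 6130 CPM at 100 µM and from 2465 to 4937 CPM at 1000 µM. Libraries held 32386242 to 34401751 counts at 100 µM and 32497612 to 40827833 at 1000 µM, with 7.27% to 9.68% and 6.94% to 10.3% of them mitochondrial. Replicates at 1000 µM differed more among themselves than those at 100 µM, with a chi-square per gene of 36.9 to 62.8 against 6.18 to 29.1 between pairs of libraries. At 10 µM it ranged from 7.14 to 65.4, so a wide spread was not particular to 1000 µM. The measure is taken on raw counts and grows with depth.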

How the data were processed

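Gene counts of 21 HepG2 libraries (6 h, 7 caffeine doses, 3 libraries each) were used as the authors deposited them: raw read counts per gene. The submitters' processing notes name HISAT2, DESeq2 and the build GRCh38. The counting program, its annotation and its use of strand are not given in the sources used here. Of 42 columns of per-sample values 21 matched labelled samples, and the other 21 were not used. Of 37637 features, 4700 are unannotated transcripts without a gene name. Counts were tested with edgeR 4.0.16 in R 4.3.3 (quasi-likelihood test, TMM scaling, filterByExpr with a minimum count of 10) over all 21 libraries in 7 groups, with 14 residual degrees of freedom. P-values were Benjamini-Hochberg adjusted over all 17468 genes tested, with a threshold of 0.05. The contrasts were 1000 minus 100 µM, 100 minus 10 µM, the difference of these, and 100 µM minus the mean of 0.01 to 10 µM. P-values set each change against the spread between libraries of the same dose, estimated over all 7 doses and not only those compared.

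The members and the 41 gene lists were chosen with earlier results of these data known. Lists were described by counts and medians, with no set test. Some genes, such as NQO1, SLC7A11 and SESN2, are on several lists, so the lists are not independent of each other. Named genes were, among called genes with a symbol, non-overlapping groups and at least 1 CPM in the higher group: the 8 largest changes each way, the 3 smallest p each way beyond these, up to 4 members of each list by p and its first member, the 5 smallest p each way in the difference of steps, and the 3 genes of smallest p with opposite calls at the preceding step, of which there were none. Further called members of a list are named to account for its count. Same-strand exon overlaps were taken from GENCODE v29, promoter windows from RefSeq (GRCh38.p14), searched on both strands. The scripts were tested on simulated data. DESeq2 1.42.0, other scalings, filters, sample sets and covariates, thinning to equal depth and leaving out each library were the alternatives. Replicate numbers did not pair the samples: deviations of same-numbered libraries at 100 and 1000 µM correlated at -0.143, 0.0735 and 0.0726. No replicates held identical values. Precision is set by 3 libraries a dose and, for low genes, by a floor of 3 counts. Some members of the lists are counted but not reported by name here.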

Additional observations from a re-analysis of the deposited data

How the results depend on the processing

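The 2568 genes called between 100 and 1000 µM became 1170 at an adjusted p under 0.01 and 382 with a log2 fold change of at least 1, and ranged from 1302 to 2987 when a library was left out. The 9 genes of 10 to 100 µM became 60 with DESeq2, 3 with only the samples of the contrast, 2 without the 0 µM libraries, 1 at the stricter p, 1 with the fold limit, and 1 to 3 without a library. The 181 genes of the difference of steps became 605 with DESeq2, 78 with no filter, 285 with only the samples of the contrast, 100 without the 0 µM libraries, 24 at the stricter p, 89 with the fold limit, 312 with the mitochondrial share as a covariate, and 15 to 200 without a library. The 78 genes of 100 µM against the lower doses became 192, 48, 32 and 5 with DESeq2, only the samples of the contrast, the stricter p and the fold limit, and 14 to 111 without a library. Libraries share only a replicate number: with it as a block the counts in the 4 comparisons were 2126, 1, 97 and 55 over all samples and 1909, 0, 89 and 29 over the samples of each contrast. Apart from the smaller sets of samples and the stricter thresholds, the cause was not tested. No named gene called between 100 and 1000 µM reversed its direction under any alternative run, while genes near 0 that were not called, such as AFP, CCN2, CPS1 and HNF4A, changed sign when a library was left out. Of 134 named genes called between 100 and 1000 µM, 109 were called in every fit with another tool, scaling, filter, sample set, block, covariate or depth, and of 36 called in the difference of steps, 14 were. With 3 libraries a dose, a missed threshold does not show that a gene was unaffected.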

Other observations

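Genes outside the lists also passed the difference of steps, and those named here were chosen after their values were seen. ERRFI1, an inhibitor of the EGF receptor, was at 471, 464 and 466 CPM at 100 µM and 1198, 1274 and 1348 CPM at 1000 µM (log2 fold change 1.45 ± 0.09 SE, adjusted p = 8.57e-09), and the last step exceeded the one before by 1.16 ± 0.15 (adjusted p = 0.00124). ERBB3, a receptor of the same family that AC034102.2 overlaps on the same strand, was at 259.9, 272 and 287 CPM at 100 µM and 469.9, 462 and 471 CPM at 1000 µM (log2 fold change 0.78 ± 0.08 SE, adjusted p = 3.05e-06), and SPRY4, an inhibitor of receptor tyrosine kinase signalling, at 31.6, 32.3 and 36.8 CPM at 100 µM and 100, 73.9 and 81.1 CPM at 1000 µM (log2 fold change 1.34 ± 0.15 SE, adjusted p = 8.87e-06). The kinase SRC rose (log2 fold change 0.88). The 100 and 1000 µM libraries did not overlap in these genes. FST, follistatin, which binds activins, was at 19.2, 19.9 and 17.99 CPM at 100 µM and 62.3, 87.7 and 83.4 CPM at 1000 µM (log2 fold change 2.03 ± 0.17 SE, adjusted p = 3.42e-07).

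AKR1C1, an aldo-keto reductase, was at 549.9, 524 and 466 CPM at 100 µM and 1075, 1161 and 1071 CPM at 1000 µM (log2 fold change 1.1 ± 0.1 SE, adjusted p = 9.61e-07), and its close paralog AKR1C2 at 33.4, 31.8 and 28.7 CPM at 100 µM and 71.8, 88.4 and 78.3 CPM at 1000 µM (log2 fold change 1.34 ± 0.11 SE, adjusted p = 2.27e-07), so reads could be split between the 2. MAFG, a small MAF protein that binds DNA with NRF2, was at 52.8, 51.9 and 53.5 CPM at 100 µM and 109, 105 and 102 CPM at 1000 µM (log2 fold change 0.99 ± 0.07 SE, adjusted p = 7.38e-08), with SIRT7 overlapping it on the same strand. SLC38A2, a neutral amino acid transporter known to be raised in amino acid shortage, was at 306, 304 and 315 CPM at 100 µM and 649, 836 and 911 CPM at 1000 µM (log2 fold change 1.37 ± 0.18 SE, adjusted p = 7.24e-05). NBR1, an autophagy receptor, rose (log2 fold change 0.68, adjusted p = 1.16e-05). Whether the difference of steps of these genes holds without each library was not tested.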
